A study of Mus musculus with 9 samples.

Results

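The 38 genes described here form the NRF2, glutathione and antioxidant module of the liver, and were taken as a list of symbols matched through Ensembl identifiers to the 41388 genes of the deposited tables. All 38 were found, and 36 of them were among the 14741 genes with enough reads to test. They were measured in whole-liver polyadenylated RNA of male C57BL/6J mice of 3 genotypes: Fabp1 Mttp DKO (DKO, n = 3 libraries), Mttp LKO (MttpLKO, n = 3) and Mttp f/f (control, n = 3). MttpLKO lacks Mttp in the liver alone, and DKO adds a germline deletion of Fabp1, so Fabp1 was missing in every tissue of those mice while Mttp was missing in the liver. Every mouse, controls included, had received the liver carcinogen diethylnitrosamine (DEN) intraperitoneally at 25 mg/kg when 14 days old, ate standard chow and was 6 months old at collection. Each library pools the RNA of 3 mice, so 27 mice stand behind the 9 libraries, and p-values measure the spread between pools. No untreated mice and no mice lacking Fabp1 alone were among the samples, the labels do not say which Cre line removed Mttp, and they do not say whether the tissue held tumour. Per its title, the study addressed liver tumour formation when VLDL secretion is impaired by loss of Mttp, and the added loss of Fabp1.

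NRF2, the product of Nfe2l2, is a transcription factor that is held in the cytosol and marked for degradation by KEAP1. Oxidants and electrophiles modify KEAP1, NRF2 then reaches the nucleus, and with small MAF proteins it binds antioxidant response elements near the genes of glutathione synthesis, glutathione transfer, quinone reduction and NADPH supply. The autophagy receptor p62, the product of Sqstm1, can take KEAP1 out of this circuit, and persistent NRF2 activity is a known feature of many liver tumours. Glutathione is the main soluble thiol of hepatocytes, and the transferases that use it are among the most abundant proteins of the liver cytosol.

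The core of the antioxidant response element, written TGACNNNGC, was searched on both strands in RefSeq promoter windows of GRCm38.p6 that run from 250 bases before to 50 bases after each gene's start. Windows were at hand for 33 of the 38 members and not for Gclc, Gsr, Gsta4, Hmox1 and Prdx6. The core stood in 8 of the 33 (24.2%): Nfe2l2, Gclm, Gsta3, Txnrd1, Srxn1, G6pdx, Prdx1 and Sod1. Of all 32851 windows in RefSeq's set, 12.4% held it. Each member was counted by its window nearest to the gene's start in the deposited tables, 8643 bases away for Gsta2. The full set was counted by window and can hold several for a gene, so these shares differ in kind. A match is a run of letters and not a measured binding site. The 5 sequences shown here are the 250 bases up to the start, written 5′ to 3′ on the strand of the gene, with the core or its reverse complement in capitals. Gclm, Gsta3 and Prdx1 are shown as members with the core in this window, and Gstm1 and Gstm2 as the members of smallest p in DKO in the results that follow; these letters were not found in their windows. Their places are chr3:122245307-122245556 (+) for Gclm, chr1:21240335-21240584 (+) for Gsta3, chr4:116685349-116685598 (+) for Prdx1, chr3:108017974-108018223 (-) for Gstm1 and chr3:107986421-107986670 (-) for Gstm2.
Gclm: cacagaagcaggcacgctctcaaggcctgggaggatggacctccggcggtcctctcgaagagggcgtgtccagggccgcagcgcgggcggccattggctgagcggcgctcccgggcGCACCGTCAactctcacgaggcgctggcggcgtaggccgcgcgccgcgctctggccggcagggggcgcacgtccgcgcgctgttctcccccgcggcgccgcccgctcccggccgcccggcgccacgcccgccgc
Gsta3: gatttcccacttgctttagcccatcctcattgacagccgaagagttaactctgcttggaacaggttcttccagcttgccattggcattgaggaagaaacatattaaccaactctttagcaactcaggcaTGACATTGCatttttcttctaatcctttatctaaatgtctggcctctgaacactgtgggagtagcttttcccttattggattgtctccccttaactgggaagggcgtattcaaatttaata
Prdx1: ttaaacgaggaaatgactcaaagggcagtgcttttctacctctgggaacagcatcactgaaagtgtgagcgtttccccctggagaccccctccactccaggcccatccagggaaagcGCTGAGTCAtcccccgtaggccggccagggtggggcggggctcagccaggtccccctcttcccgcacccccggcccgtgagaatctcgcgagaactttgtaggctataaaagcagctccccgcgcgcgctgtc
Gstm1: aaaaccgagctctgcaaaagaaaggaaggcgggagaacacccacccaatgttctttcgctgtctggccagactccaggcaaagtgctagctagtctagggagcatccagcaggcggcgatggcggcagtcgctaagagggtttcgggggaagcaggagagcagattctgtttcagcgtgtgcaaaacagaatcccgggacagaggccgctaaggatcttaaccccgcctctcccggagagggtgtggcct
Gstm2: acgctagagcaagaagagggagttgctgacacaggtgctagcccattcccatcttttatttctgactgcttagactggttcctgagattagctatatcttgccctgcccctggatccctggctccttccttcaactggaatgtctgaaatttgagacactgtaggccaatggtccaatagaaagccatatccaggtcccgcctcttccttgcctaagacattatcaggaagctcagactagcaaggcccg

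The libraries held 23268389 to 23429588 counts in DKO, 26362408 to 27918197 in MttpLKO and 24995426 to 27080442 in control, so DKO was the shallowest genotype. Mttp had 3.24 to 5.79 CPM (counts scaled to library size) in DKO and 6.14 to 9.78 CPM in MttpLKO, against 69.4 to 180.8 CPM in control, and Fabp1 had 50.3 to 78.0 CPM in DKO, against 3379 to 4984 CPM in MttpLKO and 6060 to 6845 CPM in control, so both deletions were seen in every library that should carry them. Of 6 hepatocyte markers 5 were found in the tables and none was at 0 in any library. Their summed level was 54088 to 81928 CPM in DKO, 81944 to 96017 CPM in MttpLKO and 78524 to 91264 CPM in control. Alb made up most of each sum. MttpLKO replicate 3 stood apart on the first principal component of all genes, at 53.7, while the remaining 8 ranged between -17.4 and 9.62, and its sum of 5 B and plasma cell markers was 328 CPM, the top of a MttpLKO range of 11.3 to 328 CPM, against 11.8 to 20.7 CPM in DKO and 11.8 to 17.6 CPM in control. Per-library CPM values below are on library sizes scaled by edgeR's trimmed mean of M values (TMM), ± after a mean is the SD over 3 pools, and ± after a log2 fold change is its SE.

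The module spanned a wide range of levels in these livers. Per length of gene, on the deposited RPKM scale, the most abundant members were Gpx1, the cytosolic glutathione peroxidase, at a mean of 2298 RPKM over the 9 libraries, Gstm1, a mu-class glutathione transferase, at 2221 RPKM, Fth1, the ferritin heavy chain, at 2148 RPKM, and Sod1, the cytosolic superoxide dismutase, at 2120 RPKM. These 4 did not separate from each other in every genotype: Gpx1 averaged 2581 ± 355 RPKM in DKO, 2087 ± 65.3 in MttpLKO and 2225 ± 60.4 in control (SD, n = 3 each), and Gstm1 averaged 1807 ± 187 RPKM in DKO, 2437 ± 81.0 in MttpLKO and 2417 ± 405 in control (SD, n = 3 each). Cat, catalase, followed at 983 RPKM, and Gsta3, an alpha-class transferase, at 361 RPKM. Nfe2l2 and Keap1 themselves were at 20.6 and 13.0 RPKM. Srxn1 was at 13.8 RPKM, Hmox1 at 10.1 RPKM, Nqo1 at 7.51 RPKM and Gsta1 at 2.20 RPKM, below most of the module. Among all tested genes these lay at the 80.9, 75.7, 70.5 and 43.9 percentiles of RPKM in that order. Srxn1, Hmox1 and Nqo1 were thus low only beside the other members, while Gsta1 also lay below the median of all tested genes. Slc7a11, the cystine carrier subunit, had 0 to 24 counts per library and a mean of 0.0263 RPKM, so its differences between genotypes were not detectable at this depth. Gstp1 and Gstp2, a pair of pi-class transferase genes, were listed at 0 counts in all 9 libraries, as was their neighbour in the family Gstp3. Gstp1 is known as an abundant transferase of male mouse liver, so the zeros are given as entries of the tables and not as its level in these livers. By counting error alone a 0 allows up to 3 counts, 0.107 CPM in the deepest library and 0.129 CPM in the shallowest. Over all GENCODE M21 transcripts of a gene, 586 of 1737 50-base words of Gstp1 (33.7%) occur in another gene. For Gstp2 these were 648 of 1193 (54.3%), and for Gstp3 the share was 0%. The counted lengths of Gstp1 and Gstp2 are only 757 and 770 bases, so their shares over the counted bases can be higher. The cause of the zeros was not tested.

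**Figure D1:**
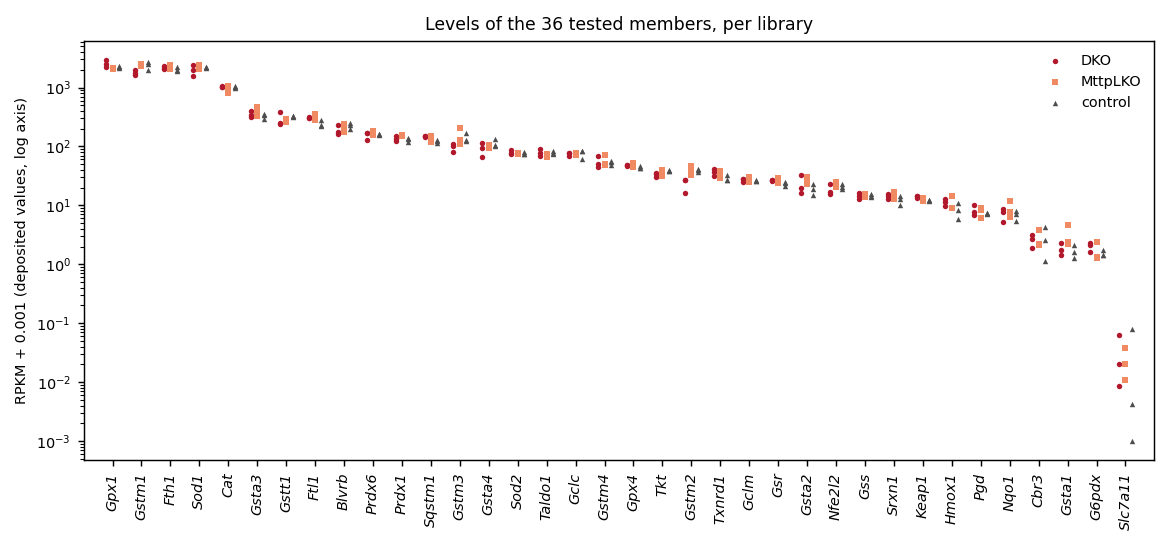
Levels of the 36 tested members in each library, as deposited RPKM plus 0.001 on a log axis, ordered by their mean over the 9 libraries; circles are DKO, squares MttpLKO and triangles control, 3 libraries each. Gpx1, Gstm1, Fth1 and Sod1 lie highest, at means of 2120 to 2298 RPKM, the genotypes lie close together for most members, and Slc7a11 lies lowest, at a mean of 0.0263 RPKM.

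No member passed the test in any of the 3 comparisons. In MttpLKO against control 0 of 36 were called at a Benjamini-Hochberg adjusted p under 0.05 in edgeR's quasi-likelihood test (smallest edgeR adjusted p = 0.576), where 0.346% of all 14741 tested genes were called. In DKO against MttpLKO 0 of 36 were called (smallest edgeR adjusted p = 0.15), where 0.4% of all genes were, and in DKO against control 0 of 36 (smallest edgeR adjusted p = 0.141), where 0.332% were. At shares this small a list of 36 genes with no call does not stand apart from the background. At an unadjusted p under 0.05 in MttpLKO against control there were 4 members higher (4.04% of all genes) and 0 lower (2.94%). In DKO against MttpLKO there were 0 higher (4.65%) and 5 lower (4.45%), and in DKO against control 2 higher (5.91%) and 3 lower (5.33%). DESeq2 called 0, 1 and 1 members in the 3 comparisons in that order, the 1 being Gstm2 each time, where it called 165, 214 and 256 of all genes against edgeR's 51, 59 and 49. The 3 comparisons share libraries, so their values for a gene are not independent. In whole tissue, fewer cells of a type and less RNA per cell cannot be told apart.

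The intervals show how large a difference these pools could hide. The 95% interval of the log2 fold change had a median half-width of 0.316 to 0.317 over the members. It lay within a doubling or halving, that is between -1 and 1 on the log2 scale, for 33 of 36 members in MttpLKO against control, for 31 in DKO against MttpLKO and for 34 in DKO against control. Of all 14741 tested genes it did so for 11229, 11137 and 11091 in that order. The members also varied little within a genotype: the SD of log2 CPM between pools of 1 genotype had a median of 0.179 over the members and of 0.226 over all tested genes, with Keap1 lowest at 0.082 and Slc7a11 highest at 1.24.

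**Figure D2:**
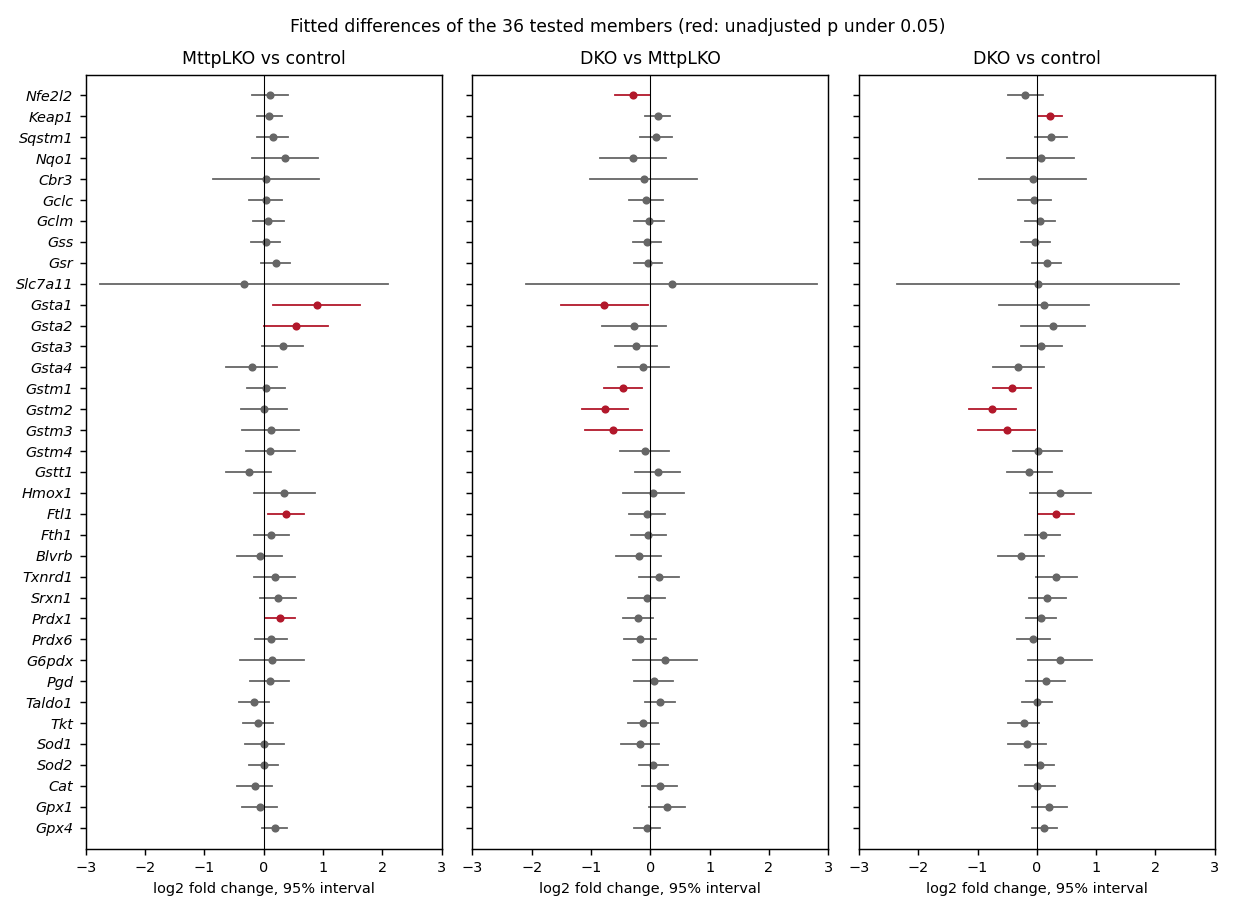
Fitted log2 fold change and 95% interval of each tested member, by role from top to bottom, in MttpLKO against control, DKO against MttpLKO and DKO against control; red marks an unadjusted p under 0.05. Most intervals cross 0; in DKO against MttpLKO the red members are Nfe2l2, Gsta1, Gstm1, Gstm2 and Gstm3, all below 0, and Slc7a11 has the widest interval.

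By direction alone, 28 of 36 members (77.8%) had higher fitted values in MttpLKO than in control, against 52.3% of all tested genes. Their median log2 fold change was 0.10, against 0.01 over all genes. In DKO against MttpLKO 12 members (33.3%) were higher and 24 lower, against 46.9% higher over all genes, with a median of -0.06 against -0.02. In DKO against control 21 (58.3%) were higher and 15 lower, against 49.6% higher over all genes, with a median of 0.05 against -0.002. The splits moved when single pools were left out. Without MttpLKO replicate 1 the split was 20 higher and 16 lower in MttpLKO against control with a median of 0.03, and 19 higher and 17 lower in DKO against MttpLKO with a median of 0.03. Without DKO replicate 2 the split in DKO against control was 16 higher and 20 lower, with a median of -0.04. Summed markers of other cells moved as well: 5 bile duct markers lay at 75.5 to 102.2 CPM in DKO, 83.3 to 139.3 CPM in MttpLKO and 62.8 to 70.4 CPM in control, and 5 cycling markers at 41.0 to 57.0 CPM in DKO, 52.9 to 66.1 CPM in MttpLKO and 36.7 to 44.4 CPM in control, with no marker of either list at 0 in any library. Both sums lay wholly above control in MttpLKO, as did the bile duct sum in DKO. Spp1 made up most of the bile duct sum and Tk1 most of the cycling sum. Singly, 2 of 5 bile duct markers and 1 of 4 tested cycling markers lay wholly above control in MttpLKO (7.27% of all genes did so). Mki67 had 0.726, 1.03 and 9.34 CPM in MttpLKO, against 1.33 to 1.51 CPM in control. Among the other lists, the neutrophil sum lay at 6.09 to 6.67 CPM in DKO, 1.57 to 4.49 CPM in MttpLKO and 2.71 to 12.9 CPM in control. The part of these cells in the members' values was not tested.

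MttpLKO replicate 1 was the library in which the module was highest. It held the highest CPM of the 9 libraries for 15 of the 36 members, among them Nqo1, Gclm, Gsr, Srxn1, Gsta3, Gstm2, Prdx1, Ftl1 and Sqstm1, while 12.6% of all tested genes were highest there. DKO replicate 2 was highest for 7 members, with 11.4% of all genes. The members' median log2 ratio to the control mean was 0.22 in MttpLKO replicate 1, against 0.07 and -0.04 in the other MttpLKO pools. It was 0.16 in DKO replicate 2, against -0.04 and -0.03 in the other DKO pools. The 3 control pools lay between -0.04 and 0.03. The SD between pools of 1 genotype in this median was 0.10, as large as the median of 0.10 between MttpLKO and control. MttpLKO replicate 1 lay at -15.2 on the first principal component of all genes. Its hepatocyte marker sum was 81944 CPM, against 83046 and 96017 CPM in the other MttpLKO pools. Why the module was highest in this pool was not tested.

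**Figure D3:**
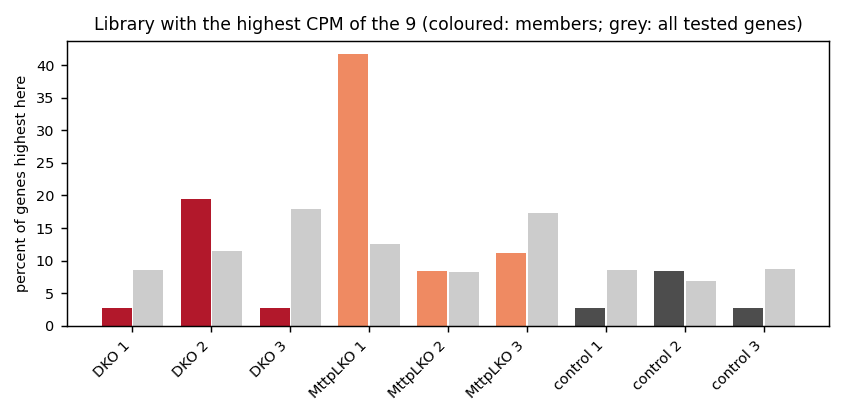
Percent of genes whose highest CPM among the 9 libraries falls in each library, for the 36 members (coloured) and all 14741 tested genes (grey), with DKO left, MttpLKO in the middle and control right. MttpLKO replicate 1 holds the highest value of 15 members, more than any other library, and DKO replicate 2 holds that of 7.

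For the factor, its sensor and p62 no difference passed the test, with lower Nfe2l2 and higher Keap1 and Sqstm1 values in DKO. Nfe2l2 had 83.7, 62.8 and 61.1 CPM in DKO, 83.5, 79.1 and 92.9 CPM in MttpLKO, and 72.2, 79.0 and 86.7 CPM in control. DKO replicate 1 lay among the other genotypes and the other 2 DKO pools below all of them, and the log2 fold change was -0.30 ± 0.14 (SE) in DKO against MttpLKO (edgeR adjusted p = 0.549), or -0.46 without DKO replicate 1. Keap1 had 61.6, 63.4 and 63.0 CPM in DKO, 62.1, 58.0 and 52.6 CPM in MttpLKO, and 55.8, 54.8 and 51.0 CPM in control. All 3 DKO pools lay above all 3 control pools, by 0.22 ± 0.09 on the log2 scale (edgeR adjusted p = 0.419). Sqstm1, whose protein binds KEAP1, likewise had non-overlapping pools, with 490.6 ± 14.5 CPM in DKO and 414 ± 23.3 CPM in control (SD, n = 3 each; edgeR adjusted p = 0.494). Of the exon bases of Keap1 11.4% overlap Gm16754 and of Sqstm1 17.3% overlap Mrnip, and how reads there were assigned is not given. Of all members 5 lay wholly above control in DKO (8.95% of all genes did so), namely Keap1, Sqstm1, Gsr, Gpx4 and Ftl1, and 3 wholly below it (9.18%), namely Gstm2, Gstm3 and Tkt.

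None of the glutathione synthesis and recycling genes passed the test. Gclc, the catalytic subunit of the rate-limiting ligase, had 244, 267 and 242 CPM in DKO, 277, 255 and 260 CPM in MttpLKO, and 209.6, 284 and 282 CPM in control. Gclm, the modifier subunit, had 144, 156 and 147 CPM in DKO, 177, 144 and 132 CPM in MttpLKO, and 144, 148 and 139 CPM in control. The genotypes overlapped for both subunits, and the log2 fold changes ran from -0.07 to 0.08 over the 3 comparisons. The 95% interval for Gclm in DKO against MttpLKO was -0.28 to 0.24 (edgeR adjusted p = 0.98). Gsr, which reduces oxidized glutathione, had 70.2, 72.8 and 72.9 CPM in DKO, 84.7, 72.5 and 64.6 CPM in MttpLKO, and 60.2, 65.5 and 67.1 CPM in control. The DKO pools of Gsr lay above the control pools by 0.16 ± 0.11 on the log2 scale (edgeR adjusted p = 0.637). Gss, glutathione synthetase, averaged 84.7 ± 10.4 CPM in DKO, 88.0 ± 3.01 CPM in MttpLKO and 86.2 ± 6.02 CPM in control (SD, n = 3 each). Slc7a11 had 0.643, 0.213 and 0.090 CPM in DKO, 0.115, 0.221 and 0.408 CPM in MttpLKO, and 0, 0.903 and 0.036 CPM in control. The control pools alone held both the lowest and the highest of the 9 values.

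Among the members the smallest p-values of the DKO comparisons were those of mu-class transferases, which had lower values in DKO. Their genes lie side by side on chromosome 3, between positions 107895821 and 108044894 of the deposited tables, in the order Gstm5, Gstm7, Gstm6, Gstm3, Gstm2, Gstm1 and Gstm4, and the enzymes join glutathione to electrophiles such as carcinogen metabolites. Gstm2, whose promoter sequence is printed above, had 42.7, 45.4 and 28.9 CPM in DKO, 81.2, 57.0 and 60.5 CPM in MttpLKO, and 66.7, 70.2 and 60.8 CPM in control. Every DKO pool lay below every other pool, at 39.0 ± 8.87 CPM in DKO, 66.2 ± 13.1 CPM in MttpLKO and 65.9 ± 4.73 CPM in control (SD, n = 3 each). That is a log2 fold change of -0.76 ± 0.18 (SE) against MttpLKO (edgeR adjusted p = 0.15) and of -0.76 ± 0.18 against control (edgeR adjusted p = 0.141), and neither passed the test. Gstm2 was called by DESeq2 in both comparisons, with an adjusted p of 0.0123 against MttpLKO and 0.013 against control. Without the low-count filter edgeR also called it, at an adjusted p of 0.0176 and 0.0182. Over the 18 alternatives the adjusted p ran from 0.0123 to 0.343 against MttpLKO and from 0.013 to 0.476 against control, and the log2 fold change from -0.87 to -0.57 and from -0.87 to -0.58.

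Gstm1, the most abundant transferase of the module, had 2154, 2798 and 2563 CPM in DKO, 3615, 3356 and 3359 CPM in MttpLKO, and 2766, 3551 and 3746 CPM in control. The DKO pools lay below the MttpLKO pools, while control replicate 1 fell within the DKO range. The log2 fold change was -0.46 ± 0.15 against MttpLKO (edgeR adjusted p = 0.344) and -0.42 ± 0.15 against control (edgeR adjusted p = 0.33). Gstm3 had 137, 134 and 112 CPM in DKO, 275, 148 and 167 CPM in MttpLKO, and 162, 219 and 164 CPM in control. Its DKO pools lay below all others, with a log2 fold change of -0.62 ± 0.22 against MttpLKO (edgeR adjusted p = 0.397) that was -0.28 without MttpLKO replicate 1. Gstm4, at the end of the row, averaged 91.8 ± 21.1 CPM in DKO, 98.1 ± 23.8 CPM in MttpLKO and 91.0 ± 6.94 CPM in control, and overlapped throughout. Of all members 4 lay wholly below MttpLKO in DKO (5.83% of all genes did so), namely Gstm1, Gstm2, Gstm3 and Gsta1, and 0 wholly above it (5.67%).

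The other mu genes, which are not members, also had lower fitted values in DKO than in either other genotype, and none passed the test. Gstm5 had 9.48, 10.2 and 9.95 CPM in DKO, 15.1, 12.7 and 12.6 CPM in MttpLKO, and 11.8, 12.2 and 12.6 CPM in control (log2 fold change -0.45 ± 0.12 in DKO against MttpLKO, edgeR adjusted p = 0.222). Gstm6 averaged 103 ± 22.5 CPM in DKO, 129.5 ± 10.8 CPM in MttpLKO and 142 ± 9.09 CPM in control (log2 fold change -0.47 ± 0.15 in DKO against control, edgeR adjusted p = 0.267). Gstm7 averaged 61.5 ± 10.2 CPM in DKO, 68.6 ± 7.97 CPM in MttpLKO and 76.8 ± 8.97 CPM in control. Summed over the 7 mu genes, the level was 2573, 3305 and 2934 CPM in DKO, 4329, 3842 and 3876 CPM in MttpLKO, and 3317, 4179 and 4275 CPM in control. The DKO sums lay below all the other sums, with means of 2937 ± 366 CPM in DKO, 4016 ± 272 CPM in MttpLKO and 3924 ± 528 CPM in control (SD, n = 3 each), and Gstm1 made up most of each sum. The hepatocyte marker sum was 54088, 72733 and 81928 CPM in the DKO pools, against 81944, 83046 and 96017 CPM in the MttpLKO pools and 90637, 91264 and 78524 CPM in the control pools. This sum lay wholly below MttpLKO in DKO and overlapped control, and Alb made up most of it in every pool. Of the 5 markers singly, 1 lay wholly below MttpLKO in DKO (5.83% of all genes did so) and 2 wholly below control (9.18%). Hnf4a overlapped both. DKO replicate 1 had the lowest marker sum and the lowest mu sum. Gstm2 and Gstm3 were lowest in DKO replicate 3. Hnf4a had 648, 646 and 864.5 CPM in the DKO pools. The part of hepatocyte content in the mu values was not tested. Mu genes resemble each other: 28.8% of the 50-base words of Gstm3, 18.9% of those of Gstm1, 5.65% of those of Gstm2 and 0% of those of Gstm4 occur in another gene.

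**Figure D4:**
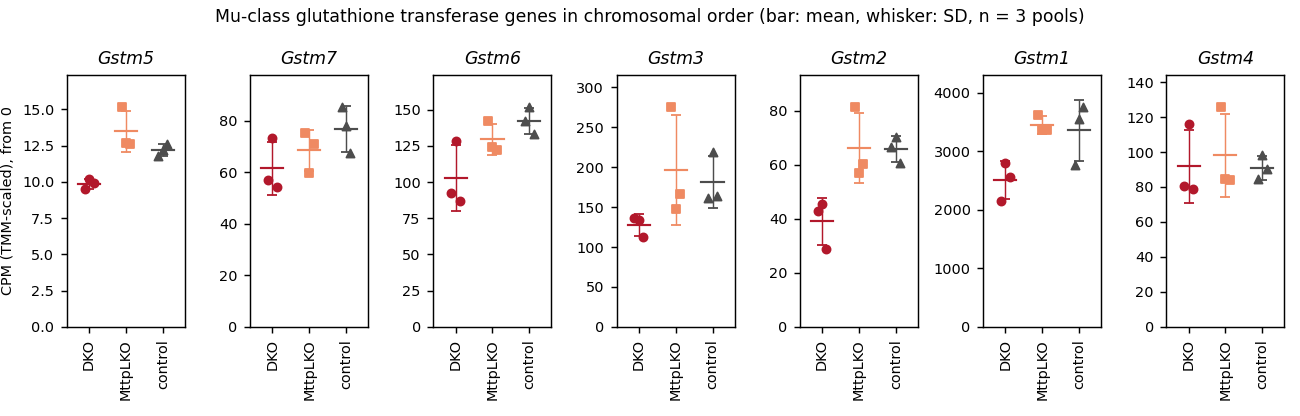
CPM of the 7 mu-class transferase genes in chromosomal order, with every library as a point, the genotype mean as a bar and the SD as a whisker (n = 3 pools each); DKO is left, MttpLKO in the middle and control right, on axes from 0. For Gstm2 all 3 DKO pools lie below all 6 others, and for Gstm4 the genotypes overlap.

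The alpha-class transferases, which also reduce lipid peroxides, had higher fitted values in MttpLKO than in control for 3 of 4 members (52.3% of all tested genes), and none passed the test. Gsta1 had 1.29, 2.17 and 1.75 CPM in DKO, 2.33, 2.21 and 4.37 CPM in MttpLKO, and 1.58, 2.03 and 1.19 CPM in control. MttpLKO lay above both other genotypes, with a log2 fold change of 0.89 ± 0.33 in MttpLKO against control (edgeR adjusted p = 0.591) and of -0.78 ± 0.33 in DKO against MttpLKO (edgeR adjusted p = 0.524). Without MttpLKO replicate 3, the pool with 4.37 CPM, these were 0.50 and -0.39. Gsta1 shares 90.5% of its 50-base words with other genes, and Gsta2 49.8%, so single values of this pair are uncertain. Gsta2 had 18.0, 37.9 and 24.0 CPM in DKO, 34.0, 28.01 and 34.6 CPM in MttpLKO, and 27.0, 22.1 and 17.2 CPM in control. The MttpLKO pools of Gsta2 lay above the control pools by 0.54 ± 0.24 on the log2 scale (edgeR adjusted p = 0.711). Gsta3 had 1623, 1467 and 1422 CPM in DKO, 2093, 1861 and 1380 CPM in MttpLKO, and 1487, 1529 and 1263 CPM in control, so that the MttpLKO pools spread more widely than those of either other genotype (log2 fold change 0.32 ± 0.16 in MttpLKO against control, edgeR adjusted p = 0.775). Without MttpLKO replicate 1 this was 0.18. Gsta4, which detoxifies the lipid peroxidation product 4-hydroxynonenal, averaged 87.0 ± 25.7 CPM in DKO, 94.4 ± 3.11 CPM in MttpLKO and 108 ± 17.1 CPM in control. Gstt1, of the theta class, averaged 448 ± 130 CPM in DKO, 412 ± 15.96 CPM in MttpLKO and 489.7 ± 12.6 CPM in control. In MttpLKO against control 3 members lay wholly above (7.27% of all genes did so), namely Gsta1, Gsta2 and Prdx1, and 2 wholly below (6.99%), namely Gstt1 and Taldo1.

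The quinone reductase Nqo1, a standard readout of NRF2, had 11.4, 13.3 and 8.38 CPM in DKO, 18.9, 12.1 and 9.56 CPM in MttpLKO, and 8.37, 12.3 and 10.9 CPM in control. MttpLKO replicate 1 lay above the other 8 libraries, which ran from 8.37 to 13.3 CPM. Nqo1 differed by 0.36 ± 0.26 on the log2 scale in MttpLKO against control (95% interval -0.20 to 0.92; edgeR adjusted p = 0.892), by -0.29 ± 0.26 in DKO against MttpLKO (edgeR adjusted p = 0.776) and by 0.07 ± 0.26 in DKO against control (edgeR adjusted p = 0.953). Without MttpLKO replicate 1 the first of these was 0.04. Cbr3, a carbonyl reductase, had 33 to 135 counts per library and averaged 2.96 ± 0.577 CPM in DKO, 3.21 ± 1.04 CPM in MttpLKO and 3.11 ± 1.88 CPM in control.

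Haem and iron genes had higher fitted values in both knockout genotypes than in control for 3 of 4 members, and none passed the test. Of all tested genes 52.3% were higher in MttpLKO than in control and 49.6% in DKO than in control. Ftl1, the ferritin light chain, had 397, 409 and 432 CPM in DKO, 495, 418 and 368 CPM in MttpLKO, and 312, 379.6 and 296 CPM in control. Its DKO pools lay wholly above control, by 0.33 ± 0.14 on the log2 scale (edgeR adjusted p = 0.412), while MttpLKO replicate 3 overlapped control (0.37 ± 0.14, edgeR adjusted p = 0.576). Ftl1 has many processed copies, and 58.4% of its 50-base words occur in another gene. Hmox1, the haem oxygenase that is induced by haem and oxidants, had 25.9, 21.0 and 25.2 CPM in DKO, 19.9, 19.7 and 30.1 CPM in MttpLKO, and 18.6, 24.1 and 12.3 CPM in control. The genotypes overlapped, with a log2 fold change of 0.39 ± 0.24 in DKO against control (edgeR adjusted p = 0.58) and of 0.34 ± 0.23 in MttpLKO against control (edgeR adjusted p = 0.884). Over the left-out libraries these ran from 0.17, without control replicate 3, to 0.64, without control replicate 2, and from 0.11, without MttpLKO replicate 3 or control replicate 3, to 0.58, without control replicate 2. The summed level of 5 macrophage markers, cells that also express Hmox1, was 43.1 to 89.7 CPM in DKO, 27.4 to 93.4 CPM in MttpLKO and 60.7 to 77.7 CPM in control. Of these 5 markers singly, 2 had higher and 3 lower fitted values in MttpLKO than in control. In DKO against control 4 were higher and 1 lower. The part of macrophages in the Hmox1 values was not tested. Fth1 averaged 1891 ± 223 CPM in DKO, 1936 ± 212 CPM in MttpLKO and 1769 ± 160 CPM in control, and Blvrb, a biliverdin reductase, 263 ± 56.1 CPM, 302 ± 52.3 CPM and 318 ± 32.5 CPM in the same order.

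**Figure D5:**
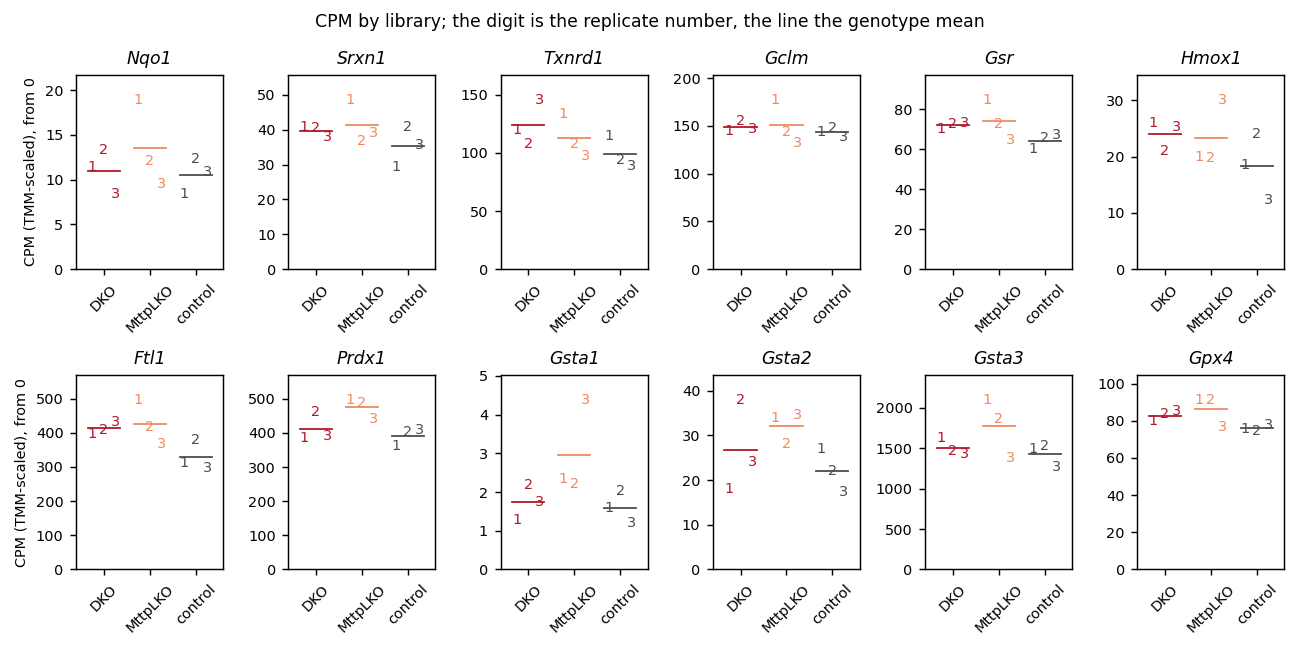
CPM of 12 members in each library, with the digit giving the replicate number and the line the genotype mean (n = 3 pools each); DKO is left, MttpLKO in the middle and control right, on axes from 0. MttpLKO replicate 1 is the top value for Nqo1, Srxn1, Gclm, Gsr, Ftl1, Prdx1 and Gsta3, and MttpLKO replicate 3 for Hmox1 and Gsta1.

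In the thioredoxin and peroxiredoxin branch, which reduces protein disulfides and peroxides, no member passed the test. All 4 had higher fitted values in MttpLKO than in control, as did 52.3% of all tested genes. MttpLKO replicate 1 was the highest library for Srxn1, Prdx1 and Prdx6. Prdx1 had 385, 462 and 389.7 CPM in DKO, 496, 488 and 442 CPM in MttpLKO, and 362, 402 and 409.7 CPM in control. The MttpLKO pools lay above all control pools, by 0.28 ± 0.12 on the log2 scale (edgeR adjusted p = 0.654). Srxn1, which repairs over-oxidized peroxiredoxins, had 40.8, 40.5 and 37.9 CPM in DKO, 48.5, 36.8 and 39.1 CPM in MttpLKO, and 29.2, 40.7 and 35.7 CPM in control. Txnrd1, the cytosolic thioredoxin reductase, had 120.0, 108 and 146 CPM in DKO, 133, 107 and 97.0 CPM in MttpLKO, and 115, 93.8 and 88.5 CPM in control. The genotypes overlapped for Srxn1 and Txnrd1, and the log2 fold change of Txnrd1 in DKO against control was 0.33 ± 0.16 (edgeR adjusted p = 0.464), or 0.20 without DKO replicate 3. Over the left-out libraries the log2 fold change in MttpLKO against control ran from 0.106 to 0.345 for Srxn1 and from 0.0415 to 0.304 for Txnrd1. Prdx6 averaged 562 ± 61.4 CPM in DKO, 633 ± 66.2 CPM in MttpLKO and 584 ± 18.4 CPM in control.

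None of the enzymes that remove superoxide and peroxide directly passed the test. Gpx1 had 2198, 3068 and 2757 CPM in DKO, 2334, 2196 and 2078 CPM in MttpLKO, and 2391, 2248 and 2290 CPM in control. DKO replicates 2 and 3 lay above all other libraries and replicate 1 among them, with a log2 fold change of 0.28 ± 0.14 in DKO against MttpLKO (edgeR adjusted p = 0.574), or 0.18 without DKO replicate 2. Gpx4, the peroxidase of membrane lipids that guards against ferroptosis, had 79.7, 83.8 and 85.0 CPM in DKO, 91.0, 91.0 and 76.8 CPM in MttpLKO, and 75.7, 74.2 and 77.8 CPM in control. Its DKO pools lay wholly above control, by 0.12 ± 0.10 on the log2 scale (edgeR adjusted p = 0.69), and 34.7% of its 50-base words occur in another gene. Cat averaged 2664 ± 98.5 CPM in DKO, 2391 ± 405 CPM in MttpLKO and 2664 ± 150.2 CPM in control. Sod1 averaged 1266 ± 241 CPM in DKO, 1427 ± 157 CPM in MttpLKO and 1418 ± 33.1 CPM in control, and Sod2, the mitochondrial enzyme, 304 ± 29.3 CPM, 293.5 ± 14.9 CPM and 293.5 ± 20.9 CPM in the same order. For Sod2 the 95% interval in MttpLKO against control was -0.24 to 0.24 on the log2 scale.

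The pentose phosphate genes, which regenerate NADPH for glutathione and thioredoxin reduction, did not pass the test either. G6pdx, the entry enzyme, averaged 6.17 ± 1.06 CPM in DKO, 5.20 ± 1.83 CPM in MttpLKO and 4.72 ± 0.607 CPM in control, and Pgd, the next NADPH-producing step, 52.4 ± 8.24 CPM, 50.4 ± 9.46 CPM and 47.2 ± 1.77 CPM in the same order. Tkt, transketolase, had 204 to 224 CPM in DKO, 204 to 272 CPM in MttpLKO and 249.7 to 253 CPM in control, so that DKO lay wholly below control, by a log2 fold change of -0.22 ± 0.12 (edgeR adjusted p = 0.52). Taldo1, transaldolase, had 141 to 182 CPM in DKO, 133 to 145 CPM in MttpLKO and 150.4 to 166 CPM in control, where MttpLKO lay wholly below control (log2 fold change -0.17 ± 0.12, edgeR adjusted p = 0.884).

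Beyond the members, 76 other genes of the same pathways were listed and 70 were tested. Of these 0 were called in MttpLKO against control (0.346% of all tested genes in either direction), 1 lower in DKO against MttpLKO (0.4%) and 0 in DKO against control (0.332%). The 1 was Me1, the cytosolic malic enzyme, another source of NADPH and a known NRF2 target. The gene lies on chromosome 9, from 86581371 to 86695953. Whether NRF2 or its place on the chromosome had a part in its values was not tested. Me1 had 62.1, 56.3 and 53.4 CPM in DKO, 106, 92.5 and 94.0 CPM in MttpLKO, and 91.4, 83.9 and 77.7 CPM in control, and fell by 0.77 ± 0.11 (SE) on the log2 scale in DKO against MttpLKO (edgeR adjusted p = 0.0105). The call was lost without MttpLKO replicate 2 (edgeR adjusted p = 0.054), without DKO replicate 2 (edgeR adjusted p = 0.0585) and with the 6 libraries alone (edgeR adjusted p = 0.0505), where the log2 fold change was -0.79, -0.74 and -0.76 in that order. Its log2 fold change in DKO against control was -0.56 ± 0.11 (edgeR adjusted p = 0.0667). By direction 47 of the 70 (67.1%) were higher and 23 lower in MttpLKO against control, where 52.3% of all tested genes were higher. In DKO against MttpLKO 27 (38.6%) were higher and 43 lower, against 46.9% higher over all genes. In DKO against control 37 (52.9%) were higher and 33 lower, against 49.6% higher over all genes.

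The other genes named by the same rule did not pass. Slc48a1, a haem transporter, averaged 84.1 ± 1.91 CPM in DKO, 85.1 ± 7.18 CPM in MttpLKO and 65.5 ± 8.09 CPM in control, with both knockout genotypes wholly above control (edgeR adjusted p = 0.267 for DKO and 0.371 for MttpLKO). Abcc4, an export pump for conjugates and bile acids, averaged 7.84 ± 1.42 CPM in DKO, 10.4 ± 3.94 CPM in MttpLKO and 4.95 ± 2.08 CPM in control (edgeR adjusted p = 0.377 for MttpLKO against control). Gstt2, a theta-class transferase, averaged 115 ± 35.8 CPM in DKO, 125 ± 17.8 CPM in MttpLKO and 176 ± 6.02 CPM in control, with its pools wholly below control in both knockout genotypes (edgeR adjusted p = 0.275 for DKO and 0.626 for MttpLKO). Prdx4, the peroxiredoxin of the endoplasmic reticulum, averaged 54.1 ± 4.56 CPM in DKO, 70.7 ± 5.02 CPM in MttpLKO and 64.5 ± 2.48 CPM in control, with DKO wholly below both (edgeR adjusted p = 0.208 against MttpLKO). Of 10 other tested transferase genes 7 were lower in DKO than in control, and of 15 other NRF2 targets of detoxification and export 10 were higher in MttpLKO than in control, 13 lower in DKO than in MttpLKO and 10 higher in DKO than in control, with 0 called in each case. Over all tested genes the shares with higher fitted values were 52.3%, 46.9% and 49.6% in MttpLKO against control, DKO against MttpLKO and DKO against control.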

How the data were processed

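Whole-gene tables of 9 liver libraries were used. The deposited counts are whole numbers of reads for each gene and entered the tests. CPM and RPKM in the same tables were computed by the authors from those counts, per the file headers, and recomputing them gave differences of at most 5.1e-11; RPKM was used to compare levels between genes. The submitters' processing notes name STAR 2.0.4b, featureCounts 1.4.5 and Subread. Not given in the sources used here: the genome build, the strand setting and the treatment of reads that match several genes; coordinates of genes follow the deposited tables. Ensembl identifiers were matched to symbols for 97.26% of genes.

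Genes were kept by filterByExpr (minimum count 10; 14741 genes), scaled by TMM and tested with edgeR 4.0.16 (R 4.3.3), by the quasi-likelihood F test in 1 fit of 3 genotype means over 9 libraries, with Benjamini-Hochberg adjustment over all tested genes and a threshold of 0.05. The SE is the fold change over the root of F. The common biological coefficient of variation was 18.3%. Total counts ran from 23268389 to 27918197, and intervals and floors cover the stated error only. Pools of 1 genotype all differed beyond counting error, with a chi-square of 21.4 to 71.3 times its degrees of freedom. The fit was also run on counts simulated from its gene means and dispersions with known changes added, and the outcome is not given here. The members and lists were chosen with earlier results of these data known, so no list has a test of its own. Values in every library are given for members called, the 6 members of smallest unadjusted p per comparison and 10 standard readouts; of other pathway genes, those called and the 3 of smallest p per comparison are named; Gstm7 was added after its values were seen. Library medians used log2(CPM + 0.1). Shared sequence was counted as 50-base words over GENCODE M21 transcripts, and promoters came from RefSeq (GRCm38.p6). Alternatives were RLE and upper-quartile scaling, no low-count filter, a minimum count of 50, DESeq2 1.42.0, limma-voom (limma 3.58.1), removal of the 20 most abundant genes, the 6 compared libraries alone, the replicate number as a block, and each library left out in turn.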

Additional observations from a re-analysis of the deposited data

How the results depend on the processing

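Of the counts of members called, those in DKO against MttpLKO and in DKO against control were 1 in place of 0 without the low-count filter and with DESeq2, the 1 being Gstm2 each time; under the other alternatives, and in MttpLKO against control under all, they were 0. These 2 settings also called more genes in all: 171, 180 and 201 without the filter and 165, 214 and 256 with DESeq2, against 51, 59 and 49. The count of other pathway genes called was 0 in place of 1 in DKO against MttpLKO with the 6 compared libraries alone, ran from 0 to 1 over the left-out libraries, and was 1 in place of 0 in DKO against control without the filter and with DESeq2 (Me1, adjusted p = 0.0308 and 0.000654, over a range of 0.000654 to 0.303). The members' median log2 fold change ran from 0.03 to 0.14, from -0.12 to 0.03 and from -0.04 to 0.09 over the left-out libraries in MttpLKO against control, DKO against MttpLKO and DKO against control. Of 1451 single-gene values 1401 kept their direction and side of the threshold, 41 changed sign, none of them called, 6 gained a call and 3 lost it. With the replicate number as a block the members called were 0 in each comparison and the medians 0.10, -0.06 and 0.05; same-numbered libraries correlated at -0.24 to 0.07, so the numbers are not taken to pair the samples. The sign of Gstm2 in MttpLKO against control turned, to -0.00344 at a minimum count of 50, -0.00733 with limma-voom and -0.000364 with the block, and that of Slc7a11 to 1.23 with limma-voom and 0.0489 with the block. Over the left-out libraries the sign of further uncalled values turned in MttpLKO against control, where Gclc ran from -0.1 to 0.0948, Gclm from -0.0572 to 0.155, Gstm1 from -0.0833 to 0.113, Gstm2 from -0.169 to 0.104, Gstm3 from -0.21 to 0.28 and Slc7a11 from -0.90 to 3.39. In DKO against MttpLKO Ftl1 ran from -0.144 to 0.0891, Gclm from -0.104 to 0.127, Gsr from -0.124 to 0.0887, Gstt2 from -0.362 to 0.0792, Hmox1 from -0.0425 to 0.281, Nqo1 from -0.486 to 0.0466, Slc48a1 from -0.0528 to 0.0689, Slc7a11 from -0.69 to 0.92 and Srxn1 from -0.127 to 0.0833. In DKO against control Gclc ran from -0.157 to 0.0276, Gsta1 from -0.0701 to 0.323, Gsta2 from -0.065 to 0.485, Gsta3 from -0.00856 to 0.127, Nqo1 from -0.0766 to 0.226, Prdx1 from -0.00332 to 0.121 and Slc7a11 from -1.02 to 3.76. The causes were not tested. Counts per library were low for Slc7a11 (0 to 24), Gsta1 (32 to 118) and Cbr3 (33 to 135), and G6pdx had 110 to 197.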
